A study of Mus musculus with 2 samples.

Results

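Among the injured EpA ependymal cells of this series, 180 cells carried transcripts of dividing cells, and they are described here. They were chosen by measured counts, as the EpA cells of the injured library with at least 2000 unique molecular identifiers (UMIs, each a counted RNA molecule) and a summed raw UMI count of at least 5 over the 5 genes Mki67, Top2a, Cdk1, Birc5 and Prc1. These are 180 of the 992 injured EpA cells with that depth (18.1%, 15.8 to 20.7), and of the 1559 EpA cells of both libraries. They are called dividing cells below for short, by their transcripts alone, since neither DNA content nor mitosis was measured. Bracketed ranges after a value are 95% intervals for counting error only, except after a median count of a gene's UMIs per cell. There they give the lowest and highest count among the cells.

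The injured library came from adult C57BL/6J mice of at least 12 weeks, taken 3 days after the dorsal funiculus had been cut, and the uninjured library from the intact cord of mice of the same kind. All mice were heterozygous for the Troy-CreERT2 allele (+/-), in which a tamoxifen-dependent recombinase is expressed from the locus of Troy (another name of Tnfrsf19). They also carried a Rosa26-tdTomato reporter. The fluorescent cells of a 5 mm cord segment were sorted and sequenced by a single-cell 3′ method, with 1 library per condition, and the number of animals behind each library is not given in the sources used here. Cells of 1 library are not replicates, so no test was made and differences were read by size. The 180 dividing cells were set against the other 812 injured EpA cells and, more narrowly, against the 389 of these that had few cilium transcripts. The other 423 injured cells, which kept cilium transcripts, and 547 uninjured EpA cells are given for their levels.

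In the spinal cord, ependymal cells form the lining of the central canal and bear motile cilia, whose basal bodies are modified centrioles. A centriole cannot serve at the same time as the foot of a cilium and as part of a spindle pole, and cells usually resorb cilia before mitosis. In the adult cord ependymal cells seldom divide, and after an injury they are known to proliferate and to give rise to progeny, chiefly astrocytes of the scar. Division runs from the G1 phase, in which D-type cyclins act, through DNA replication in S phase to G2 and mitosis, whose genes are transcribed in waves under the E2F factors and then the MuvB complex with B-MYB and FOXM1.

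The 5 genes that chose the cells are given as a description. The summed UMI count of the 5 genes had a median of 41.5 over the dividing cells, with a range of 5 to 527. A UMI of Prc1, which bundles the microtubules of the central spindle, was present in 97.8% of the dividing cells, against 12.1% of the other injured cells. For Mki67, the nuclear proliferation antigen, these shares were 83.3% in dividing and 2.71% in other injured cells. The genes Top2a (DNA topoisomerase), Cdk1 (the mitotic kinase) and Birc5 (survivin, of the chromosomal passenger complex) were each seen in between 82.8% and 89.4% of the dividing cells. The rule has no gap in it. The 33 injured cells just outside it, with a sum of 3 or 4, had a median of 0.24% of their UMIs in genes of G2 and mitosis other than the 5, and the 19 cells just inside it, with 5 or 6, had 0.37%. The 56 cells with a sum of 100 or more had 2.50% (medians, each cell thinned to 10000 UMIs).

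**Figure D1:**
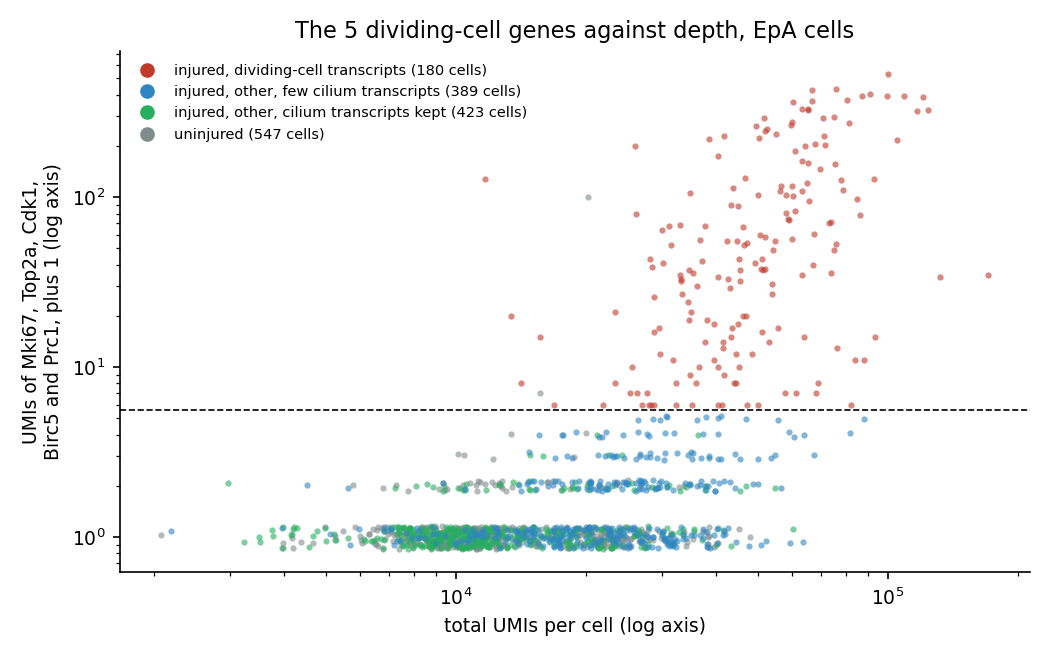
Summed UMIs of Mki67, Top2a, Cdk1, Birc5 and Prc1 plus 1 (y, log axis, jittered for cells under the threshold) against total UMIs (x, log axis) for each EpA cell with at least 2000 UMIs. The dashed line marks the threshold of 5. The dividing cells (red) have sums of 5 to 527 and lie to the right of most other cells, with a median of 49426.5 UMIs, against 17050.5 in the other injured cells.

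Depth differed with the groups and bears on every value that follows. The dividing cells held a median of 49426.5 UMIs and 6821 genes per cell, against 17050.5 UMIs and 4386.5 genes in the other injured cells. The median was 22734 UMIs in the other injured cells with few cilium transcripts, 11576 in those that kept them and 11415 in uninjured cells. A raw sum of 5 is easier to reach in a deep cell, and the shallowest dividing cell had 11680 UMIs. Transcripts of the mitochondrial genome were a median of 3.71% of UMIs in dividing cells, against 7.63% in the other injured cells. The part of depth in the differences was not tested beyond the matched values given below.

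In uninjured EpA cells the same rule was met by 2 of 547 cells (0.366%, 0.0443 to 1.31). The first of them had 99 UMIs of the 5 genes and cilium genes at 0.85% of its thinned UMIs, below the range of nearly all uninjured cells, and the other had 6 UMIs and 1.65%. Both libraries contained 2 EpA cell barcodes in common, and both belonged to dividing cells on the injured side. The injured cells with these barcodes held 120595 and 123727 UMIs with 386 and 324 UMIs of the 5 genes, and their uninjured namesakes held 809 and 820 UMIs with 7 and 2. The uninjured namesakes fell under 2000 UMIs and enter no group. When cells were thinned to 10000 UMIs, at least 2 UMIs of the 5 genes were found in 30.3% of injured cells below the cilium range, 1.09% of injured cells within it and 1.57% of uninjured cells.

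The label was checked against markers. All 9 fixed ependymal markers were detected in the dividing cells, with a summed level of 1628 counts per 1000000 UMIs (CPM), against 4941 CPM in the other injured cells and 9334 CPM in uninjured cells. Every one of the 180 cells held at least 5 UMIs of these markers. However, 179 also held 5 UMIs of astrocyte markers and 163 of neuron markers, so at this depth the count does not tell cell types apart. Tmem212 and Ccdc153, markers of ciliated ependymal cells, stood at 12.4 and 12.1 CPM in the dividing cells, against 571 and 467 CPM in the other injured cells. The label "ependymal" for these cells thus rests on the authors' set and on the remaining markers, most of which were lower too. Sox2 and Sox9 were at 406 and 271 CPM in dividing cells, against 760 and 446 CPM in other injured cells. Rarres2, Mia and S100b were at 44.6, 59.8 and 196 CPM in dividing cells, against 568, 715 and 505 CPM in other injured cells. Cd24a was close, at 550 CPM in dividing and 581 CPM in other injured cells. The reporter transcript (tdTomatoWRPE in the files) was at 1677 CPM in dividing and 1739 CPM in other injured cells. Tnfrsf19, the gene behind the driver, was at 3.13 CPM (2.11 to 4.47) in dividing cells and 13.0 CPM in other injured cells.

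Markers of other cell types were summed in the same way. Over 10 microglia and macrophage markers the dividing cells had 38.7 CPM, against 49.0 CPM in the other injured cells, with Csf1r and Tmem119 at 0 in dividing cells. Of these markers Cd68 and Cx3cr1 were higher, at 3.34 and 0.209 CPM in dividing cells, against 1.66 and 0 CPM in other injured cells. The 5 detected oligodendrocyte markers summed to 96.4 CPM in dividing and 151 CPM in other injured cells, of which Cnp alone gave 89.0 CPM in dividing and 137 CPM in other injured cells. Endothelial, fibroblast and pericyte markers summed to 10.0, 37.0 and 4.39 CPM in the dividing cells, against 8.91, 38.5 and 14.0 CPM in the other injured cells. Neuron markers were higher, at 922 CPM in dividing and 486 CPM in other injured cells. Stmn2, which codes for a tubulin-binding protein, made up 894 CPM of the sum in dividing and 477 CPM in other injured cells. Tubb3 and Nefl were higher too, at 16.4 and 10.5 CPM in dividing cells, against 6.37 and 1.40 CPM in other injured cells. Snap25, Syt1 and Rbfox3 were lower, at 0.522, 0.104 and 0.104 CPM in dividing cells, against 1.46, 0.446 and 0.255 CPM in other injured cells. Schwann cell markers summed to 69.8 CPM in dividing and 42.5 CPM in other injured cells, of which Pmp22 gave 68.7 and 41.0 CPM. Scrublet called 4 of 1566 injured barcodes doublets, of which 3 were EpA cells, and all 3 were dividing cells. Whether it missed doublets was not tested, and cells were left out on its calls only in 2 of the alternatives.

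Across the genes with at least 50 CPM in either group, 349 of 3646 (9.57%) were at least 2-fold higher in the dividing cells than in the other injured EpA cells, and 507 (13.9%) were at least 2-fold lower. Of the 349 higher genes, 107 were members of the cell cycle lists, and of the 507 lower genes 58 were motile cilium genes. Against the other injured cells with few cilium transcripts, 258 of 3409 genes (7.57%) were higher, 109 of them from the cell cycle lists, and 231 (6.78%) were lower. With 180 other injured cells chosen to match the dividing cells in depth as far as possible (median 33363.5 UMIs), 236 genes were higher and 299 lower. The 389 cells are part of the 812 and both comparisons hold the same dividing cells, so their values are set side by side and not counted as separate support. A level in CPM is a share of the group's RNA, and a lower share in cells with more UMIs need not be fewer molecules per cell.

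The genes of G2 and mitosis outside the rule had the highest list median. List members count as measured when the mean of the compared groups reaches 5 CPM, and at that level 8.57% of all 10438 genes were higher by the 2-fold mark in dividing cells and 13.4% were lower. Of 79 measured genes of G2 and mitosis, 74 were higher and none was lower, with a median log2 ratio of 5.22 (a 37.3-fold higher level), beside −0.06 over all genes. Against injured cells with few cilium transcripts, where 6.7% of 10281 genes were higher and 8.05% lower, the count was 75 of 79 higher and none lower, with a median of 4.94. These genes share their phase with the 5 genes of the rule, so their direction follows from the choice of cells. The shares over all genes given here also stand beside the list counts that follow.

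Hmmr, which codes for a spindle protein that binds hyaluronan and microtubules (chr11:40701395-40733422, mm10), was at 201 CPM (192 to 210) in dividing cells and 0.446 CPM (0.179 to 0.918) in other injured cells, a 451-fold higher level (219 to 1124). Ccnb1, cyclin B1, was at 145 CPM in dividing and 0.509 CPM in other injured cells, and Plk1, the polo kinase of mitosis, at 84.5 CPM in dividing and 0.255 CPM in other injured cells. Aurkb, the kinase of the chromosomal passenger complex, had 490 UMIs in dividing cells and none in the 812 other injured cells, which makes it at least 268-fold higher against a floor of 3 counts over that group. Ube2c, the ubiquitin-conjugating enzyme of the anaphase-promoting complex, and Ccna2, cyclin A2, stood at 406 and 109 CPM in dividing cells, against 2.61 and 0.828 CPM in other injured cells. The 12 highest ratios were of Aurkb, Hmmr, Fam64a, Plk1, Ccnb1, Dlgap5, Nusap1, Kif20a, Ube2c, Hist1h1b, Casc5 and Ccna2. The spindle protein genes Nusap1 and Dlgap5 were at 148 and 68.2 CPM in dividing cells, against 0.828 and 0.255 CPM in other injured cells. Hmgb2, a chromatin protein, was at 1544 CPM (1519 to 1569) in dividing and 98.3 CPM in other injured cells. In 10000 UMIs a dividing cell held a median of 14 Hmgb2 UMIs (0 to 50), against 1 (0 to 5) in injured cells with few cilium transcripts. The groups overlap in this gene, since the lower quartile of the dividing cells was 3.75.

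Not every gene of this list was higher. Pttg1, the securin that holds separase in check, was at 75.5 CPM in dividing and 143 CPM in other injured cells, and it was highest in injured cells that kept cilia transcripts (236 CPM) and uninjured cells (285 CPM). In UMIs per cell Pttg1 was not lower, with a mean of 4.02 in dividing and 2.77 in other injured cells. Its log2 ratio to depth-matched cells was −0.46 in the wider and 0.03 in the narrower comparison. Ckap5, a microtubule polymerase, was at 142 CPM in dividing and 190 CPM in other injured cells. Bub3, of the spindle checkpoint, and Fzr1, an activator of the anaphase-promoting complex in G1, were 1.90-fold and 1.93-fold higher, short of the 2-fold mark. Ckap5, Bub3 and Fzr1, and Mcm5 and Pcna below, were picked after their values were seen.

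Promoter sequence is shown for the leading genes because they moved together. The CHR element of mitotic genes (letters TTTGAA), the CCAAT box (letters CCAAT) and the E2F site (letters TTTCCCGC, TTTCGCGC, TTTGCCGC or TTTGGCGC) were searched on both strands, in the 300 bases from 250 before to 50 after the start of each gene, taken from RefSeq on GRCm38.p6. Of the 67 G2 and mitosis genes with an entry, 59.7% held the CHR letters, 71.6% the CCAAT letters and 7.46% the E2F letters. Of the 36 S phase genes with an entry, 11.1% held the CHR letters, 58.3% the CCAAT letters and 33.3% the E2F letters. Over all 27025 promoters these shares were 18.1% for CHR, 37.9% for CCAAT and 2.32% for E2F. Of the 59 motile cilium genes with an entry, 11.9% held the CHR letters, 40.7% the CCAAT letters and 3.39% the E2F letters. A match is a description of these letters and not a shown site.

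The 4 genes of G2 and mitosis with the highest ratios and an entry were Hmmr, Plk1, Ccnb1 and Melk, a kinase of dividing cells at 41.6 CPM in dividing and 0.127 CPM in other injured cells. Their promoters follow 5′ to 3′ on the gene's strand, with letters of the 3 motifs in capitals. They lie at chr11:40733388-40733687 (minus strand), chr7:122159185-122159484 (plus), chr13:100786437-100786736 (minus) and chr4:44300667-44300966 (plus).
Hmmr: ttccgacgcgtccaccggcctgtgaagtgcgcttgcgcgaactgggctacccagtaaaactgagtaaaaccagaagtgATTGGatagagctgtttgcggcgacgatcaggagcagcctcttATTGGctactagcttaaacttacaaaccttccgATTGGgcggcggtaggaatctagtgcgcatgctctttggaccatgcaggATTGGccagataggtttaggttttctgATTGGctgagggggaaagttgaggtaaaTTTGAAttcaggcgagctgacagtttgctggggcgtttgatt
Plk1: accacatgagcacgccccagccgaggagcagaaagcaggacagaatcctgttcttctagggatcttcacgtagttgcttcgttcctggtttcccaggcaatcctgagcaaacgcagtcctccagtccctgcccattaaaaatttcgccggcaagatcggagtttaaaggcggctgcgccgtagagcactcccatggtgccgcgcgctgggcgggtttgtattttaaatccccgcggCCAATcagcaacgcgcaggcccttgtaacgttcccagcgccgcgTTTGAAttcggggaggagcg
Ccnb1: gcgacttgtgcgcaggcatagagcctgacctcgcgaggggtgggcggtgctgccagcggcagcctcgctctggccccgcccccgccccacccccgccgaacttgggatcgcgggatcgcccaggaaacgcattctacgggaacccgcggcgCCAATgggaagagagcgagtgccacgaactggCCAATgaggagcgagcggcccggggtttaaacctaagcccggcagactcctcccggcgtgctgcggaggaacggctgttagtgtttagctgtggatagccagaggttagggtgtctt
Melk: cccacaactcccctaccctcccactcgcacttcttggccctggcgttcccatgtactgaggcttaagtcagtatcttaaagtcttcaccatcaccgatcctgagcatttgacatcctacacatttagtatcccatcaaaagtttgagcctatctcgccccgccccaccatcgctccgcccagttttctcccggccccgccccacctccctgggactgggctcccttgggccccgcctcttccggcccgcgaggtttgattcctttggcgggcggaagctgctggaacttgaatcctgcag
The Hmmr window held the CCAAT letters at 5 places, all on the opposite strand, and the CHR letters 8 bases after its start. The Plk1 window held 1 CCAAT match that begins 14 bases before the start and 1 CHR match 30 bases after it. Ccnb1 held CCAAT letters at 99 and 67 bases before its start and no CHR letters, and Melk held none of the 3 motifs.

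The S phase genes were higher as well. As with the mitotic genes counted above, no counted member belonged to the rule. The rule still chose cells by transcripts of division, so a higher S phase level is not independent of that choice. All 49 S phase genes were measured, and 47 were at least 2-fold higher in dividing cells than in other injured cells. None was lower, and the median log2 ratio was 3.31 (9.92-fold). Against injured cells with few cilium transcripts all 49 were higher, with a median of 3.50. Tk1, thymidine kinase, was at 60.4 CPM (55.5 to 65.5) in dividing and 0.637 CPM in other injured cells. Mcm5 of the replicative helicase was at 52.6 CPM in dividing and 1.78 CPM in other injured cells, and the sliding clamp Pcna at 102 CPM in dividing and 15.7 CPM in other injured cells. Cdc6, a loader of that helicase, was sparse, at 14.2 CPM in dividing and 0.318 CPM in other injured cells. A dividing cell thinned to 2000 UMIs had a median of 0.25% of its UMIs in S phase genes, against 0.05% in other injured and in uninjured cells.

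The promoters of the 2 S phase genes with the highest ratios, Tk1 (chr11:117825965-117826264, minus strand) and Mcm10 (chr2:5012742-5013041, minus), held no E2F letters, and Mcm10 held 3 CCAAT matches. Cdc6 (chr11:98907901-98908200, plus) is shown beside them as the highest S phase gene whose window held E2F letters, and was picked after the matches were seen. Its match begins 138 bases before the start, on the opposite strand.
Tk1: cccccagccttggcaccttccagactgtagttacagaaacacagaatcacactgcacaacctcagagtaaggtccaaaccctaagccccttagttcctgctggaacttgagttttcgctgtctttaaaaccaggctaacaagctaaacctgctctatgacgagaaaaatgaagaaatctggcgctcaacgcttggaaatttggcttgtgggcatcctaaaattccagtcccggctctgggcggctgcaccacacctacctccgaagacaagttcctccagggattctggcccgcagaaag
Mcm10: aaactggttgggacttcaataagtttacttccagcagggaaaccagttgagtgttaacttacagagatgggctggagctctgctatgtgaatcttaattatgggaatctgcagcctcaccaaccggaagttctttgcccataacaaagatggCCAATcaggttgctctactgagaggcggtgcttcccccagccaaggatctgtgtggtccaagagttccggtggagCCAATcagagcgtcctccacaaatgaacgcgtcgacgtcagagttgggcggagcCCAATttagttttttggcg
Cdc6: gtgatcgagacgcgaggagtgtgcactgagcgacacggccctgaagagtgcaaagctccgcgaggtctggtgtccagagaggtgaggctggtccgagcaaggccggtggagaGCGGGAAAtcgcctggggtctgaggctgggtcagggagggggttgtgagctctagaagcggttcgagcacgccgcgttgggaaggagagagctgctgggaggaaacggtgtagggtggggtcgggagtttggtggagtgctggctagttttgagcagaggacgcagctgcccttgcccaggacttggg
The capitals mark the same 3 motifs as in the mitotic promoters.

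Groups around replication followed the same direction in part. Of 24 measured histone genes, 16 were higher and 1 lower (median log2 ratio 2.59), led by the linker histone gene Hist1h1b at 328 CPM in dividing and 2.36 CPM in other injured cells. Histone transcripts of the replication-dependent kind mostly lack a long poly(A) tail, and a 3′ method primed on such tails counts them only in part. Of 19 DNA repair genes, 13 were higher and 1 was lower, with Brca1 at 30.3 CPM in dividing and 0.891 CPM in other injured cells. Of 27 genes of the nuclear envelope and chromatin, 19 were higher and none lower, among them Lmnb1 (lamin B1) and the histone methyltransferase gene Ezh2, at 116 and 143 CPM in dividing cells, against 15.6 and 26.0 CPM in other injured cells. Of 20 genes of nucleotide synthesis, 8 were higher and none lower, with Dctpp1, which removes modified dCTP, 4.22-fold higher (3.81 to 4.67).

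Of 18 measured transcription factors of the cycle, 9 were higher and 1 lower. The higher ones included E2f1 (30.2 CPM in dividing, 3.25 CPM in other injured cells), the repressor E2f8 (15.3 CPM in dividing, 0.127 CPM in other injured cells) and Foxm1 (27.8 CPM in dividing, 0.891 CPM in other injured cells). The lower one was Rb1, the retinoblastoma protein that restrains E2F, at 69.9 CPM (64.7 to 75.4) in dividing and 174 CPM in other injured cells, a 2.49-fold lower share. In UMIs per cell Rb1 was not lower, with a mean of 3.72 in dividing and 3.37 in other injured cells. Its family member Rbl1 was among the 9 higher genes.

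**Figure D2:**
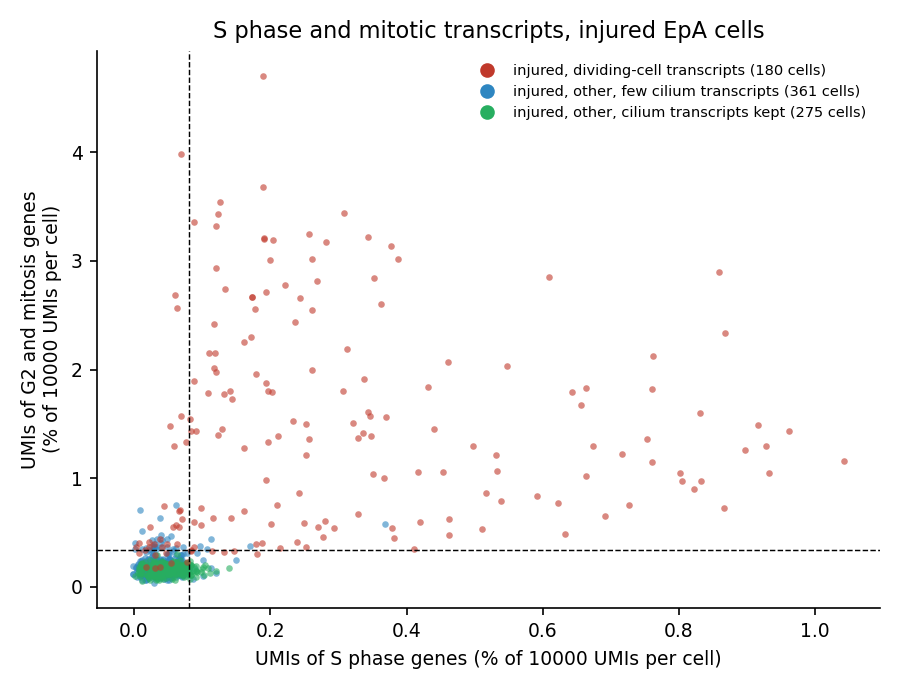
S phase genes (x) against genes of G2 and mitosis other than the 5 rule genes (y), each as the percentage of a cell's UMIs after thinning to 10000, for the injured EpA cells with that depth. Dashed lines mark the 95th percentile of the other injured cells (0.08% and 0.34%); 139 of the 180 dividing cells (red) lie above both lines.

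Most of the 180 dividing cells were high in both S phase and mitotic transcripts, by cuts set on the other injured cells. With each cell thinned to 10000 UMIs, 139 cells (77.2%) were above the 95th percentile of the 636 other injured cells of that depth for both lists, 26 for G2 and mitosis alone, 4 for S phase alone and 11 for neither. The rule used genes of G2 and mitosis, and injured cells with S phase transcripts but few UMIs of the 5 genes are not among the 180. Across the 180 cells, which share a library, Spearman's correlation between the 2 shares was 0.23 and Pearson's 0.03. Histone transcripts followed the mitotic share (Spearman's correlation 0.66) more closely than the S phase share (0.24). Between the S phase share and a cell's total UMIs Spearman's correlation was 0.45.

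The 4 classes were cut from these shares, and only genes outside both lists are compared. Cyclin D1 (Ccnd1) was at 668 CPM in the 139 cells high for both, 304 CPM in the 26 cells high for G2 and mitosis alone, 360 CPM in the 4 cells high for S phase alone and 182 CPM in the 11 cells high for neither. In the same 4 classes Gfap, the intermediate filament gene of astrocytes, was at 222, 294, 481 and 764 CPM. Crym, which codes for a thyroid hormone-binding protein, was at 1574, 2358, 2730 and 1124 CPM. The last classes hold few cells, and the 11 cells high for neither had a median of 7 UMIs of the rule genes, close to the threshold.

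Of 20 measured G1 cyclins and inhibitors, 5 were higher and none was lower (median log2 ratio 0.16). Over all genes 8.57% were higher and 13.4% lower. Ccnd1 (chr7:144929931-144939925), the D-type cyclin that responds to growth factors, was at 594 CPM (579 to 610) in dividing cells, 129 CPM in injured cells with few cilium transcripts, 10.9 CPM in injured cells that kept them and 7.55 CPM in uninjured cells. It was 7.18-fold higher than in all other injured cells (6.76 to 7.63) and 2.14 higher on the log2 scale against depth-matched cells. In 10000 UMIs the median dividing cell held 4 Ccnd1 UMIs (0 to 27), against 0 (0 to 13) in injured cells with few cilium transcripts, and the ranges overlap. At 2000 UMIs 58.9% of dividing cells had a Ccnd1 UMI, against 7.64% of other injured cells and 11.5% of 26 cells outside the EpA set that carried microglia markers (median depth 25609.5 UMIs). Without thinning these shares were 96.7%, 28.6% and 57.7%. Of the 26 cells, 10 met the rule for dividing-cell transcripts themselves, so they are no division-free background for this gene.

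Cyclin D2 (Ccnd2) was at 109 CPM in dividing, 213 CPM in other injured and 467 CPM in uninjured cells, a 1.96-fold lower share than in other injured cells, short of the mark. Its mean per cell was 5.79 UMIs in dividing and 4.12 UMIs in other injured cells. Cdkn3, a phosphatase of Cdk1, was 53.6-fold higher. The inhibitor genes Cdkn1a and Cdkn1b, of the p21 and p27 proteins, were at 38.5 and 76.0 CPM in dividing cells, against 53.5 and 82.6 CPM in other injured cells. Neither passed 2-fold. Cdkn2c, of the p18 inhibitor, was higher, at 51.5 CPM in dividing and 17.8 CPM in other injured cells.

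The motile cilium genes were lower in the dividing cells. Of the 71 listed, 69 were in the files and 68 were measured, and these 68 were at least 2-fold lower than in the other injured cells, with a median log2 ratio of −3.17 (9.02-fold lower). Their summed level was 1302 CPM in dividing cells, 11122 CPM in other injured and 22089 CPM in uninjured cells. For scale, over the 62 of these genes listed for cells outside the EpA set, the dividing cells had 1093 CPM and the other injured cells 9910 CPM, and the 26 cells with microglia markers, which bear no motile cilia, had 156 CPM. Stoml3, of a stomatin-like protein, was at 3.34 CPM (2.29 to 4.72) in dividing and 189 CPM in other injured cells, a 56.6-fold lower level. Tmem212 (chr3:27866066-27896368), of a membrane protein of ciliated cells, was 45.9-fold lower. Single cells held much of these few UMIs, and without the highest dividing cell of each gene Tmem212 was at 7.66 CPM, Ccdc153 at 6.38 CPM, Stoml3 at 2.02 CPM, Clec3b at 0.319 CPM and Pvalb at 1.06 CPM. The 12 lowest ratios were of Clec3b, Stoml3, Ccdc33, Tmem212, Cdhr3, Ccdc153, Stmnd1, Tctex1d4, Pvalb, Pcp4, Uckl1os and Dmkn. Clec3b, of the secreted protein tetranectin, was at 0.627 CPM in dividing and 53.5 CPM in other injured cells. Pvalb, the calcium buffer parvalbumin, was at 2.30 CPM in dividing and 83.2 CPM in other injured cells.

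Per cell, the cilium genes took a median of 0.1% of 2000 UMIs in the dividing cells, with a range of 0 to 1.1, against 1.55% in other injured and 2.15% in uninjured cells. The cilium range was set at the 5th percentile of uninjured cells, 1.45%. All 180 dividing cells lay below it (100%, 98.0 to 100), against 389 of 812 other injured cells (47.9%, 44.4 to 51.4). Seen from the other side, none of the 423 injured cells within the range met the rule (0%, 0 to 0.868), while 180 of the 569 cells below it did (31.6%). Of 207 cells within the range that were at least as deep as the shallowest dividing cell, none met the rule (0%, 0 to 1.77). Below the range 180 of 525 such cells did (34.3%). These sets still differed in depth, with medians of 18646 UMIs within the range and 29703 UMIs below it. None of the dividing cells lay within 20% of the boundary, and 117 of the other injured cells did. Within the dividing cells the cilium share had a Spearman's correlation of −0.34 with the S phase share and −0.10 with the mitotic share (n = 180 cells of 1 library, thinned to 10000 UMIs).

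**Figure D3:**
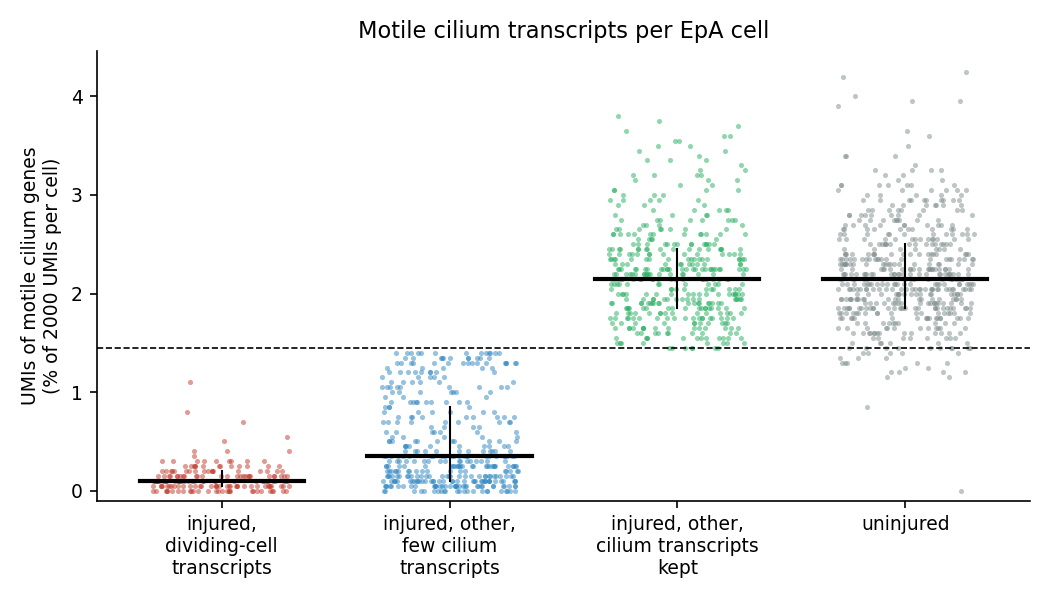
UMIs of 69 motile cilium genes as a percentage of 2000 UMIs per cell (y) for dividing cells, the 2 classes of other injured EpA cells and uninjured cells (x). Points are cells, thick bars medians and thin bars quartiles, and the dashed line is the boundary at 1.45% that defines the 2 middle classes; the highest dividing cell is at 1.1%.

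Regulators of the ciliary program were lower too, as a share of UMIs. Of 6 cilium transcription factors, 4 were lower and none higher (median log2 ratio −1.39). Foxj1 (chr11:116330704-116335399), the master factor of motile cilia, was at 76.8 CPM (71.3 to 82.5) in dividing cells, 189 CPM in injured cells with few cilium transcripts, 543 CPM in those that kept them and 422 CPM in uninjured cells. It was still detected in 86.7% of dividing cells, and at 2000 UMIs in 13.3%, against 51.2% of other injured cells and none of the 26 cells with microglia markers. Rfx2 and Rfx3, which act with it, were 3.92-fold and 2.86-fold lower than in other injured cells. Their mean per cell was 0.433 and 1.37 UMIs in dividing cells, against 0.618 and 1.42 UMIs in other injured cells. For Foxj1 the mean was 4.08 UMIs in dividing and 6.34 UMIs in other injured cells. Of 27 genes of intraflagellar transport and the ciliary membrane, which non-motile cilia also use, 15 were lower and none higher, and 6 were lower against injured cells with few cilium transcripts (median log2 ratio −1.07 and −0.45). Since the cilium genes defined that last group, the motile cilium list is not read against it.

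Of 13 measured genes of centrioles and multiciliation, 5 were higher and 2 lower, beside 8.57% higher and 13.4% lower over all genes. Plk4, the kinase that starts centriole duplication, was at 38.4 CPM (34.6 to 42.6) in dividing and 3.44 CPM in other injured cells, and Sass6 of the centriole's cartwheel was among the 5 higher genes. The 2 lower ones were Trp73 and Myb, regulators of multiciliation, at 0.835 and 6.58 CPM in dividing cells, against 10.8 and 32.6 CPM in other injured cells. Trp73 rests on 8 UMIs in dividing cells and was at 0.532 CPM without the cell that held 37.5% of them. E2f4 and E2f5, factors that also act in multiciliation, did not pass 2-fold, at 25.8 and 50.5 CPM in dividing cells, against 18.1 and 34.9 CPM in other injured cells. Of 12 genes tied to cilium disassembly, 2 were higher and 2 lower, beside the same shares over all genes. Nde1, which limits cilium length, was at 110 CPM in dividing and 23.9 CPM in other injured cells. Kif19a, a kinesin that shortens motile cilia, was at 1.04 CPM in dividing and 19.7 CPM in other injured cells.

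Ependymal identity genes were lower too, and several were also lower against the injured cells that had few cilium transcripts. Of 22 measured genes, 16 were lower and none higher (median log2 ratio −2.31), and 12 of 19 were lower in the narrower comparison (−1.35). Mia (chr7:27179742-27181157), a secreted protein, was at 59.8 CPM (55.0 to 65.0) in dividing cells, 444 CPM in injured cells with few cilium transcripts, 1135 CPM in those that kept them and 1418 CPM in uninjured cells. In 10000 UMIs the dividing cells held a median of 0 Mia UMIs (0 to 9), against 4 (0 to 27) in injured cells with few cilium transcripts. Mt3, the brain metallothionein, was at 1397 CPM in dividing cells, against 6689 CPM in other injured and 10528 CPM in uninjured cells. Pcp4, a calmodulin-binding peptide, was 31.4-fold lower than in other injured cells and 7.44-fold lower in the narrower comparison.

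The 12 lowest ratios of the narrower comparison were of Fam216b, Dmkn, Apoe, Lbp, Acot5, Mia, Pcp4, Tmem255a, Aldoc, Rsph4a, Ak7 and Cfap54, of which Rsph4a, Ak7 and Cfap54 code for parts of the motile cilium. They are low in dividing cells by that choice, and Apoe, Aldoc and Lbp are given as examples picked after their values were seen. Apoe (chr7:19696109-19699188), of the lipid carrier apolipoprotein E, was at 116 CPM (109 to 123) in dividing cells, against 962 CPM in injured cells with few cilium transcripts, 893 CPM in those that kept them and 1044 CPM in uninjured cells. In 10000 UMIs the median dividing cell held 0 Apoe UMIs (0 to 10), against 6 (0 to 101) in injured cells with few cilium transcripts. Aldoc, the aldolase of astrocytes, was at 62.6 CPM in dividing cells, 434 CPM in injured cells with few cilium transcripts, 371 CPM in those that kept them and 88.5 CPM in uninjured cells. Lbp, of the lipopolysaccharide-binding protein, was at 14.7 CPM in dividing cells, against 120 and 119 CPM in these 2 classes of injured cells. In UMIs per cell the difference was smaller for Apoe, at a mean of 6.15 in dividing and 18.1 in other injured cells. The 26 cells with microglia markers had 16524 CPM of Apoe, and the part of RNA from such cells in these values was not tested.

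Gfap was lower in the dividing cells than in injured cells with few cilium transcripts. It stood at 267 CPM (256 to 277) in dividing cells, 1004 CPM in injured cells with few cilium transcripts, 324 CPM in those that kept them and 8.59 CPM in uninjured cells. That is 2.77-fold lower than in all other injured cells and 3.77-fold lower than in those with few cilium transcripts. In 10000 UMIs the dividing cells held a median of 1 Gfap UMI with quartiles of 0 and 3, against 5 with quartiles of 1 and 15 in injured cells with few cilium transcripts and 1 with quartiles of 0 and 3 in those that kept them. The mean was 14.2 Gfap UMIs per dividing cell, against 14.3 per other injured cell and 24.7 per cell with few cilium transcripts. At 2000 UMIs 32.2% of the dividing cells had a Gfap UMI, 39.9% of the other injured cells and 3.85% of the 26 cells with microglia markers, and without thinning 82.2%, 72.5% and 15.4%. The injured cells that kept cilium transcripts had 24.8% at 2000 UMIs and 55.1% without thinning. When cells were thinned to 2000 UMIs, its log2 ratio to all other injured cells was −0.97, inside the 2-fold mark.

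The oligodendrocyte and astrocyte lineage list held 9 measured genes, of which 3 were lower (Gfap, Aldoc and Aqp4) and 2 higher (Aldh1l1 and Tubb3). Aqp4, the water channel of astrocytes and ependyma, was at 15.7 CPM in dividing and 101 CPM in other injured cells. Olig2, the oligodendrocyte lineage factor, was at 4.49 CPM in dividing, 8.78 CPM in injured cells with few cilium transcripts and 0.130 CPM in uninjured cells. In the narrower comparison 4 of 10 measured genes were lower and none higher.

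Of 29 measured progenitor genes, 7 were higher, 3 were lower and 19 passed neither way, beside 8.57% higher and 13.4% lower over all genes (median log2 ratio −0.27), and in the narrower comparison 4 of 31 were higher and 4 lower (−0.42). Nes, of the filament nestin, was at 472 CPM (459 to 486) in dividing cells, 217 CPM in injured cells with few cilium transcripts, 18.1 CPM in those that kept them and 6.77 CPM in uninjured cells. Against depth-matched cells its log2 ratio was just short of the 2-fold mark in the wider comparison and 0.78 in the narrower one. Fabp7, of the brain fatty acid-binding protein of radial glia, was 3.35-fold and 2.19-fold higher, and its depth-matched log2 ratios were 0.99 and 0.76. Id1, an inhibitor of differentiation factors, was at 78.5 CPM in dividing and 18.4 CPM in other injured cells. The stem cell factors Sox2 and Sox9 were at 406 and 271 CPM in dividing cells, against 760 and 446 CPM in other injured cells, and neither passed 2-fold. Vim was at 16842 CPM in dividing cells, 17705 CPM in injured cells with few cilium transcripts and 2207 CPM in uninjured cells. Lgr5, a receptor for R-spondins, was 2.32-fold lower than in injured cells with few cilium transcripts, at 33.2 CPM in dividing and 77.1 CPM in these cells, a call that was lost with each cell weighted alike (log2 ratio −0.79).

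**Figure D4:**
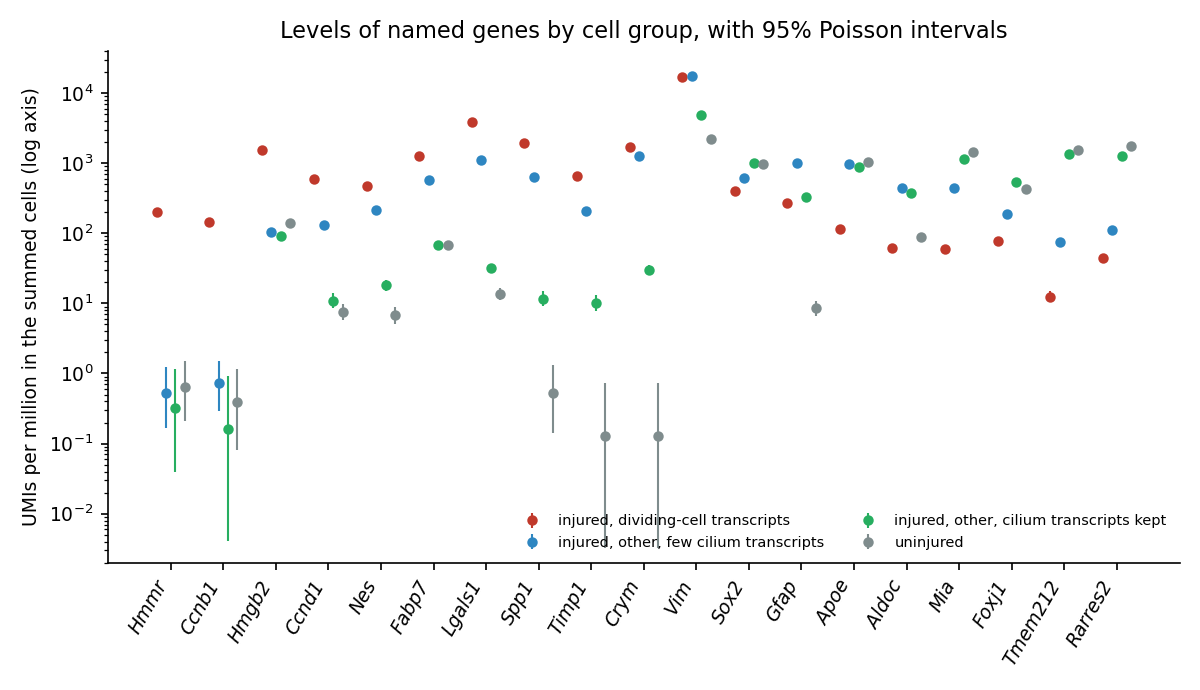
Levels of named genes in CPM (y, log axis) over the summed cells of each group, with 95% Poisson intervals for counting error only. Ccnd1, Lgals1, Spp1 and Timp1 are higher in dividing cells (red) than in injured cells with few cilium transcripts (blue), Vim is at 16842 CPM in dividing and 17705 CPM in these cells, and Gfap, Apoe, Aldoc and Mia are lower.

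Of 25 measured reactive glia genes, 8 were higher and 4 lower than in the other injured cells (median log2 ratio 0.53). In the narrower comparison 5 of 26 were higher and 6 lower (median 0.20). Over all genes 8.57% were higher and 13.4% lower in the wider comparison, and 6.7% and 8.05% in the narrower one. Lgals1 (chr15:78926725-78930465), of the carbohydrate-binding galectin 1, was at 3887 CPM (3848 to 3927) in dividing cells, 1116 CPM in injured cells with few cilium transcripts, 31.4 CPM in those that kept them and 13.5 CPM in uninjured cells. In 10000 UMIs the dividing cells held a median of 36 Lgals1 UMIs with quartiles of 24.8 and 47, against 4 with quartiles of 1 and 12 in injured cells with few cilium transcripts. The ranges between the quartiles did not overlap, though the full ranges did, at 1 to 93 in dividing cells and 0 to 63 in the others. Against depth-matched cells it was still higher, with log2 ratios of 1.64 and 1.41.

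Spp1 (chr5:104435118-104441050), of the secreted protein osteopontin, was at 1962 CPM in dividing and 638 CPM in injured cells with few cilium transcripts, but 1 of these other cells held 48.0% of their UMIs, and without it their level was 335 CPM. The 26 cells with microglia markers had 26108 CPM of Spp1, and the part of RNA from such cells in these values was not tested. At 2000 UMIs 52.8% of dividing cells had an Spp1 UMI, against 4.68% of other injured cells, and without thinning 85.6% and 23.6%. Timp1, a metalloprotease inhibitor, was at 647 CPM in dividing and 211 CPM in injured cells with few cilium transcripts, and the 26 cells had 24.0 CPM. Crym (chr7:120186380-120202111) was at 1681 CPM in dividing cells, 1246 CPM in injured cells with few cilium transcripts, 30.3 CPM in those that kept them and 0.130 CPM in uninjured cells. It was 2.18-fold higher than in all other injured cells and 1.35-fold higher in the narrower comparison, and its log2 ratio to depth-matched cells was 0.35 and 0.06. The lower reactive genes included S1pr3, a receptor for sphingosine 1-phosphate, at 2.71 CPM in dividing and 20.8 CPM in other injured cells.

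Genes of the cytoskeleton and of growth were higher in part. The share higher over all genes was 8.57% in the wider and 6.7% in the narrower comparison. Of 32 genes of cytoskeleton and migration, 18 were higher and none lower (median log2 ratio 1.05), and 10 were higher in the narrower comparison (0.72). Tubb6, a beta-tubulin, was at 149 CPM (142 to 157) in dividing cells, 17.3 CPM in injured cells with few cilium transcripts and 0.781 CPM in uninjured cells. The alpha-tubulin gene Tuba1c was 9.64-fold higher than in other injured cells. Of 14 growth and axon associated genes, 6 were higher and none lower, and 2 were higher in the narrower comparison. These were Vgf, of a secreted neuropeptide precursor, at 136 CPM in dividing and 44.6 CPM in injured cells with few cilium transcripts, and Dusp6, a phosphatase of the ERK kinases, at 45.0 CPM in dividing and 16.6 CPM in injured cells with few cilium transcripts.

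Outside the cell cycle lists, the 12 highest genes in the wider comparison were Fam111a, Cdkn3, Cenpm, Cenph, Dbf4, Tubb6, Il11, Lockd, Igfbp3, Hmga2, Tuba1c and Pmf1, and the narrower comparison shared all 12 of them in another order. Several belong to division by their known roles. Cenpm and Cenph, of kinetochore proteins, were at 91.0 and 53.2 CPM in dividing cells, against 2.67 and 1.59 CPM in other injured cells. Dbf4, the activator of the kinase that fires replication origins, was 21.5-fold higher, and Fam111a, of a protease at replication forks, 55.0-fold higher. Hmga2 (chr10:120361275-120476469), of an architectural chromatin protein of embryonic and progenitor cells, was at 92.4 CPM in dividing cells, 15.3 CPM in injured cells with few cilium transcripts and 1.04 CPM in uninjured cells. At 2000 UMIs 9.44% of dividing cells had an Hmga2 UMI, against 2.06% of injured cells with few cilium transcripts and none of the 26 cells with microglia markers, and without thinning 57.8%, 11.8% and 3.85%.

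Il11 (chr7:4772373-4782859), a cytokine of the interleukin 6 family, also met the size rule, at 53.8 CPM in dividing and 4.77 CPM in other injured cells. It was present in 27 of the 180 cells, and 1 cell held 67.4% of its UMIs. Without that cell the level in dividing cells was 17.7 CPM, which is under the floor of 50 CPM. Igfbp3, of a carrier of insulin-like growth factors, was at 52.0 CPM in dividing and 4.90 CPM in other injured cells, was present in 68 cells, and stood at 45.1 CPM without its highest cell.

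**Figure D5:**
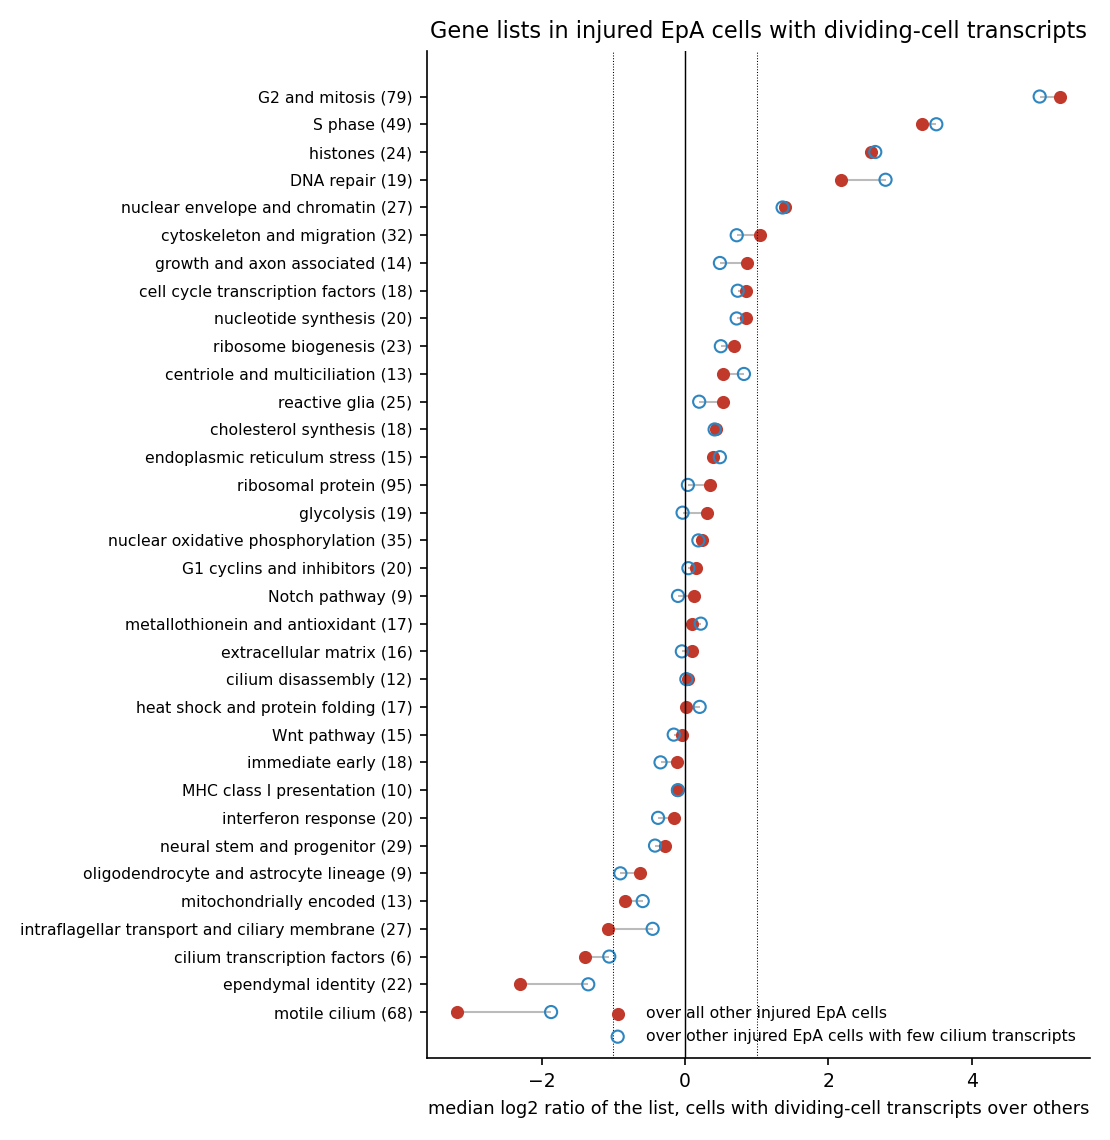
Median log2 ratio (x) of each gene list (y, number of measured genes in the wider comparison in brackets), dividing cells over all other injured EpA cells (filled) and over those with few cilium transcripts (open). Dotted lines mark 2-fold. The medians run between 5.22 for G2 and mitosis and −3.17 for motile cilium genes in the wider comparison; cilium genes defined the group of the open points.

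Calls among defence and stress genes are read beside the shares over all genes. These shares were 8.57% higher and 13.4% lower in the wider comparison, and 6.7% and 8.05% in the narrower one. Of 20 interferon response genes, 4 were lower and none higher in both comparisons. These were Ifitm3, Gbp2, Ifit3 and Ifit1, all induced by interferon. Ifitm3, of a membrane protein that hinders viral entry, was at 1797 CPM in dividing and 4734 CPM in other injured cells. Gbp2, of a guanylate-binding protein, was at 21.4 CPM in dividing and 59.1 CPM in other injured cells. The mean per cell was 95.6 Ifitm3 UMIs in dividing, 91.6 in other injured and 114 in injured cells with few cilium transcripts. For Gbp2 these means were 1.14, 1.14 and 1.65. Ifit3 and Ifit1 each had a mean of 0.206 in dividing cells, against 0.456 and 0.309 in other injured cells. In injured cells with few cilium transcripts, the highest cell held 51.7% of the Ifit3 UMIs and 32.7% for Ifit1. Of 17 heat shock genes 3 were lower, among them Hspa1a, a chaperone induced by stress, at 12.5 CPM in dividing and 90.1 CPM in other injured cells.

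Metabolic and translation lists showed small medians. Of 23 ribosome biogenesis genes, 4 were higher and none lower (0.69), including Srm, spermidine synthase, 2.95-fold higher. Among 95 ribosomal protein genes, 1 was higher and 1 lower (0.35, and 0.04 in the narrower comparison). None of 35 nuclear genes of oxidative phosphorylation passed 2-fold in either direction (0.23), and 3 of 13 mitochondrially encoded genes were lower (−0.84). Of 19 glycolysis genes, 2 were higher and 3 lower, and of 18 cholesterol synthesis genes, 2 were higher and 2 lower. Further lists are read beside 8.57% higher and 13.4% lower over all genes in the wider comparison. Notch had 1 of 9 higher and none lower, Wnt 2 higher and 1 lower of 15, and extracellular matrix 3 of 16 higher. MHC class I had 2 of 10 lower, immediate early genes 3 higher and 1 lower of 18, and endoplasmic reticulum stress 2 of 15 higher. The metallothionein and antioxidant list had 1 higher and 2 lower genes of 17.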

How the data were processed

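The deposited values are raw UMI counts per gene and cell, left unnormalised by the authors, since all are whole and cells differ in their totals. The submitters' processing notes name Cell Ranger 3.0.1, Seurat and mm10; which step each served, and which annotation was counted, is not given in the sources used here. Their own EpA table holds 1004 injured cells (25296289 UMIs) and 555 uninjured cells (7689179 UMIs), and its injured values equalled those of the library table.

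UMIs were summed over the cells of a group and scaled to counts per 1000000 (CPM). Intervals at 95% were exact Poisson for levels, conditional binomial for ratios and Clopper-Pearson for shares, and cover counting error only. Log2 ratios had 0.5 counts added. Outside the list counts, a call of higher or lower needed 2-fold and 50 CPM in either group. Members of a list were measured from 5 CPM on average. They, and all genes at that level, were counted as higher or lower at 2-fold alone. Shares per cell used cells thinned to 2000 or 10000 UMIs. The narrower comparison used injured cells below the 5th percentile of uninjured cells for cilium UMIs. Cells with at least 20 UMIs of microglia markers outside the EpA set gave the background. Of these 26 cells, 10 met the rule for dividing-cell transcripts.

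The members, gene lists and rules were chosen with earlier results of these data known. Named genes were the 12 highest and 12 lowest ratios, the 12 highest outside the cell cycle lists, the leading 5 of each list, all members of 3 cycle lists and a fixed set, of which the text gives a part. Listed symbols missing from the files were matched through RefSeq synonyms. Gene positions are from GENCODE M21. Calculations used Python 3.11.15, numpy 2.4.6, pandas 2.3.3, scipy 1.17.1, scanpy 1.11.5 for Scrublet, and edgeR 4.0.16 for TMM factors in an alternative, and were tested on simulated data. Alternatives covered the rule, weighting and thinning of cells, depth matching, scaling, the CPM floor and the removal of doubtful cells.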

Additional observations from a re-analysis of the deposited data

Results flagged for a closer look

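The rule for dividing-cell transcripts was also applied to the authors' kept cells outside the EpA set, which no comparison above uses. It was met by 71 of 200 injured cells with at least 2000 UMIs (35.5%, 28.9 to 42.6), against 3 of 111 uninjured cells (2.70%, 0.561 to 7.70). By the marker list with the highest level in each cell, 43 of the 71 carried chiefly endothelial markers, 11 fibroblast markers, 10 microglia and macrophage markers, 5 ependymal markers, 1 astrocyte markers and 1 neuron markers. Their median depth was 42216 UMIs. This stood out because the signal lies in cells outside the main measurement and above its level in the uninjured library. It has no replicate check, and the part of cell types that entered the sort after injury was not tested.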

How the results depend on the processing

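The number of dividing cells was 213 with a sum of at least 3, 148 with at least 10, 152 with at least 1 UMI of the 5 genes after thinning to 2000, 178 under 10% mitochondrial UMIs, and 74 without doublets or cells with 5 UMIs of another type's markers. That last rule takes out deep cells, and 92 of the 180 held 5 oligodendrocyte marker UMIs. With a limit of 500 CPM of such markers instead, chosen after seeing the data, 352 genes were higher and 506 lower in the wider comparison. The median for G2 and mitosis was 4.37 with the thinned rule, 4.81 with thinned cells and 4.82 with matched depth. The S phase median was 3.11 (sum of 3), 2.67 (thinned rule), 2.94 (cells weighted alike), 3.45 (matched depth) and 3.03 (without 5 UMIs of other types). The motile cilium median was −3.03 (sum of 3), −2.74 (thinned rule), −3.33 (cells weighted alike), −3.31 (thinned cells), −2.58 (matched depth), −3.59 (without 5 UMIs of other types) and −3.02 (under 10% mitochondrial UMIs). The median cilium share per dividing cell was 0.0958% without thinning. With no CPM floor 2072 genes were higher and 3324 lower in the wider comparison, and 1855 and 2616 in the narrower one, by the construction of the floor. With 100 CPM these counts were 203, 246, 144 and 107, and matched depth left 299 lower genes in the wider comparison. Of 3025 alternative values for 275 named results, 2875 kept direction and call, 82 lost the call, 66 gained it and 2 turned. Those 2 were of Il11, whose log2 ratio was −1.15 in the wider and −1.77 in the narrower comparison with the thinned rule, and 1 cell held most of its UMIs. TMM factors moved all log2 ratios by 0.07 and 0.08. No paired analysis was possible because there was 1 library per condition. With a single injured library, variation between animals is not measured, and depth limits what can be said of genes at a few CPM.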
